A study of Mus musculus with 7 samples.

Results

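The 9 genes Il21, Il4, Il2, Ifng, Il10, Il17a, Tnf, Lta and Ltb, which encode cytokines made by CD4+ T helper cells, were taken by gene symbol from a table of 19589 genes, and all 9 were found in it. They were read in CD4+ cells sorted by flow cytometry from the spleens of C57BL/6 mice. The RT group had 3 mice whose genotype is given as Tet2-/- with G17VRHOA, that is, loss of the DNA demethylase gene Tet2 together with the G17V form of the small GTPase RHOA. The WT group had 4 wild-type mice. The labels used here name no promoter or Cre driver for G17VRHOA and no age or sex, and they describe each library as a separate mouse. The RT mice differ from the WT mice in both alleles at once, so the part of each allele in a difference cannot be told apart.

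Helper T cells are sorted into subsets largely by the cytokines they release. Interferon gamma marks type 1 helper cells and activates macrophages, interleukin 4 marks type 2 helper cells and drives B cells toward IgE, and interleukin 17A marks type 17 helper cells and recruits neutrophils. Interleukin 21 is the signature product of follicular helper T cells, which help B cells in germinal centres, and it acts through a receptor that uses the common gamma chain. Interleukin 2 is the growth factor of recently activated T cells, and interleukin 10 restrains inflammation. TNF, lymphotoxin alpha and lymphotoxin beta belong to the TNF superfamily, and the lymphotoxins build and maintain the architecture of spleen and lymph nodes. Mutation of TET2 together with RHOA G17V is known from angioimmunoblastic T cell lymphoma in humans, a disease of cells that resemble follicular helper T cells.

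Most of these genes are switched on within hours of antigen receptor signalling, through calcineurin and the NFAT factors. The 250 bases before the RefSeq gene start (GRCm38.p6, the same build as mm10) are shown. They are given for Il21, the member that differed most between the groups, and for its neighbour Il2, which had no read. Ifng, Il4 and Tnf are shown too and stand for the other helper subsets and the TNF family. Capitals mark the NFAT core GGAAA, on either strand and so also as TTTCC. The windows are chr3:37232637-37232886 (Il21, minus strand), chr3:37125955-37126204 (Il2, minus strand), chr10:118440796-118441045 (Ifng, plus strand), chr11:53618666-53618915 (Il4, minus strand) and chr17:35202008-35202257 (Tnf, minus strand).
Il21: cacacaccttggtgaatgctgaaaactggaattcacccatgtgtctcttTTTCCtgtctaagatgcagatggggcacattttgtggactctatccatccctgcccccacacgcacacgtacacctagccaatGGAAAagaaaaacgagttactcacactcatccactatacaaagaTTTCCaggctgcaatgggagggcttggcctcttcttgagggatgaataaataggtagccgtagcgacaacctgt
Il2: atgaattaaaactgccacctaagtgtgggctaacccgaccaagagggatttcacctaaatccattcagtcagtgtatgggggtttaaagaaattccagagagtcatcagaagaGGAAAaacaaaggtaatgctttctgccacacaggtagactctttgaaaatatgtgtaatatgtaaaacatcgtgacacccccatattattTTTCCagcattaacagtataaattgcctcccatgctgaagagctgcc
Ifng: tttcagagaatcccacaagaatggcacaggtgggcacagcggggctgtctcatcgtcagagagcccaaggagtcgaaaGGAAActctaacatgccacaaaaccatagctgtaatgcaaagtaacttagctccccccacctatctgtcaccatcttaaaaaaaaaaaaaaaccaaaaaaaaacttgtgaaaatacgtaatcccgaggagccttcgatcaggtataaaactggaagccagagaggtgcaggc
Il4: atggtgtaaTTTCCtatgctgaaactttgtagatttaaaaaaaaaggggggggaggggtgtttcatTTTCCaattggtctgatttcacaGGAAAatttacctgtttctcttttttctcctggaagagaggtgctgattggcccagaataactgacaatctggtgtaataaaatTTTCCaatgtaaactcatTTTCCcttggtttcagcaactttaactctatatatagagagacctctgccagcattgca
Tnf: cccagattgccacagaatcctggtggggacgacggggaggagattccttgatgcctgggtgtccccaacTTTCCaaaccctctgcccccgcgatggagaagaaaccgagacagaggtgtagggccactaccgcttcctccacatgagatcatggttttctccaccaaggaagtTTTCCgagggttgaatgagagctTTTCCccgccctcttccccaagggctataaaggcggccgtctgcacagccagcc
The core was present 3 times before Il21, 2 times before Il2, 1 time before Ifng, 5 times before Il4 and 3 times before Tnf. RefSeq gives Il4 another start, whose window chr11:53617339-53617588 is not shown and holds 0 cores. The core was also present in 55.6% of 32851 RefSeq windows of the 250 bases before a gene start, so its presence is common. The letters TATAAA, on either strand, were found before Il2, Ifng and Tnf and in 12.4% of those windows, and no match to them overlapped a GGAAA match in the sequences shown. A match is only a run of letters.

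The libraries differed greatly in depth, which decides how each value can be read. The deposited values are RPKM, reads per kilobase of gene and per 1000000 reads, and their steps gave back whole reads. RT1, WT1 and WT2 were deep, with 8963448 to 11098099 recovered reads in genes. RT2, RT3, WT3 and WT4 were shallow, with 95959 to 110706. Over all genes, RPKM summed to 133044 to 152578 in the deep libraries and to 326187 to 366023 in the shallow ones. The mix of deep and shallow libraries differs between RT and WT, so group means in RPKM also carry depth. In a shallow library a gene with 0 reads can still stand at 27.1 to 31.3 RPM (reads per 1000000 recovered reads) if 3 reads are taken as the limit, against 0.270 to 0.335 RPM in a deep one. Deep reads may not stand for independent molecules. Of 1171 genes with 20 to 49 reads in WT1, 274 (23.4%) had no read at all in WT2. These libraries come from different mice, so a difference between the mice cannot be told apart from repeated reads of few molecules. Within a single deep library, 46 genes had 1 read and 86 had 10 reads in RT1. These numbers were 34 and 94 in WT1 and 39 and 78 in WT2, against 1770 and 138 in the shallow RT2. The cause was not tested. Intervals and limits therefore cover counting error only. The CD4 T cell markers were all present, with 12 of 12 above 0 in every library. Their sum was 5734, 14579 and 12122 RPM in RT1 to RT3, against 6426, 6568, 7743 and 7382 RPM in WT1 to WT4. It was thus higher in RT2 and RT3 than in any WT library. Limma voom called 2 of the 12 lower and 0 higher, beside 8.39% called lower over all genes tested. The erythroid list was highest in WT3 and WT4, at 1768 and 1743 RPM, against 110 to 406 RPM elsewhere. The part of such differences in the cytokine levels was not tested. RT1 stood apart in Thy1, a surface marker of T cells, with 47.4 RPM, against 490 RPM in RT2, 298 RPM in RT3 and 414 to 541 RPM in WT.

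**Figure D1:**
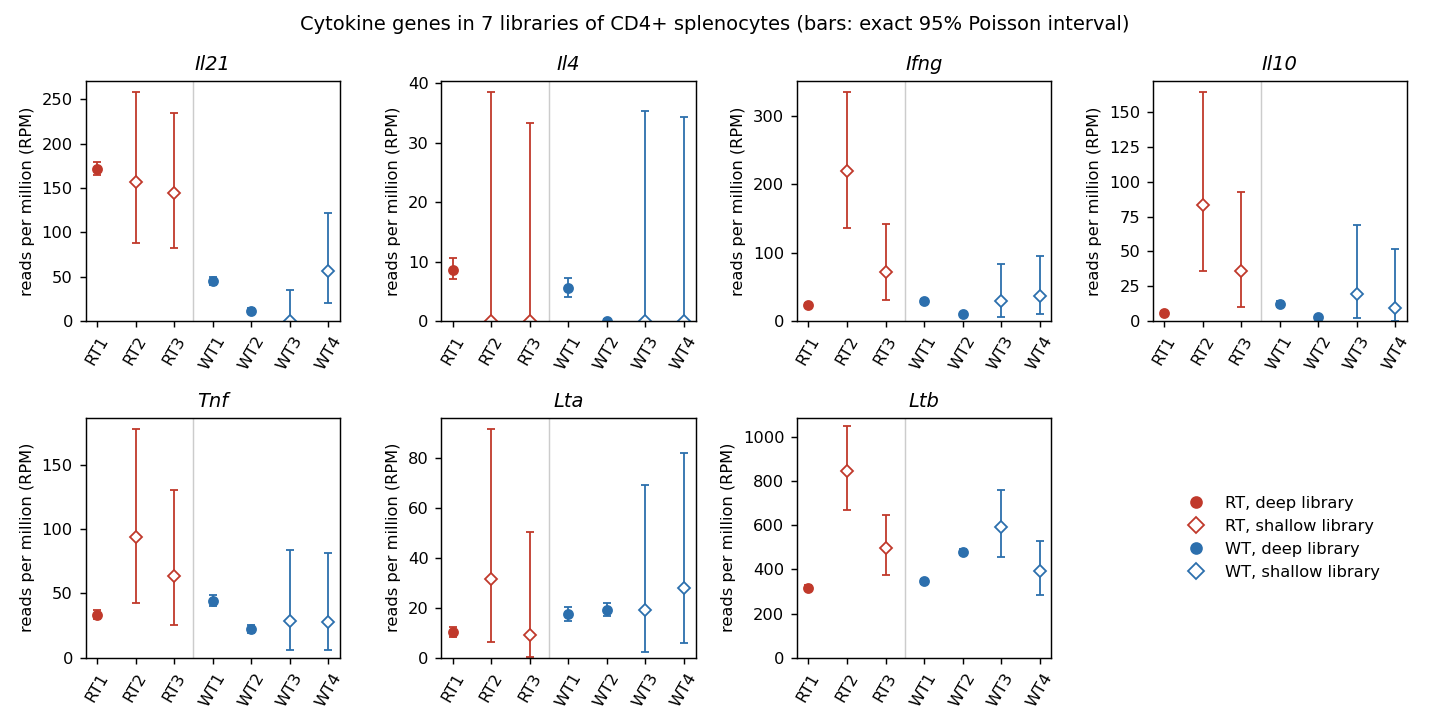
Level in each library of the 7 cytokine genes that had reads (Il2 and Il17a were at 0 in all), in reads per 1000000 recovered reads (RPM), with RT left of WT. Filled points are deep libraries, open diamonds are shallow ones, and bars are exact 95% Poisson intervals, which cover counting error only. The 3 RT libraries sit between 145 and 172 RPM for Il21, above the WT libraries at 0 to 55.9 RPM.

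Il21 was the member that separated the genotypes. It stood at 172, 156 and 145 RPM in RT1, RT2 and RT3, against 45.1, 11.8, 0 and 55.9 RPM in WT1, WT2, WT3 and WT4. Every RT library was above every WT library, in RPM and in RPKM alike. On counting error alone, the 95% interval of WT4 (20.5 to 122 RPM) overlapped those of RT2 (87.5 to 258 RPM) and RT3 (82.6 to 235 RPM). On the deposited scale the values were 27.7, 44.9 and 41.6 RPKM in RT and 6.89, 1.96, 0 and 15.6 RPKM in WT, with means of 38.1 ± 9.13 (SD, n = 3) and 6.11 ± 6.96 RPKM (SD, n = 4). Of the 5852 genes tested on recovered reads, 336 (5.74%) also had all RT libraries above all WT libraries. The reads behind these values were 1908, 15 and 16 in RT and 404, 124, 0 and 6 in WT. They were counted over a length of 3160 bases that was found from the steps of the values and is not an annotated length, so a whole multiple of these reads cannot be told apart from them, whereas the ratios between libraries do not depend on it.

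Tests across all genes gave unequal answers for Il21 on the 2 scales. In limma voom on recovered reads, with terms for genotype and library set (deep or shallow), Il21 rose in RT by 2.93 ± 0.52 on the log2 scale (SE, 95% interval 1.74 to 4.12, adjusted p = 0.00732). That fit called 588 of 5852 genes higher in RT (10.05%) and 491 lower (8.39%), so a call was common. Of the 9 members, 5 passed the filter of 10 or more reads in the shallow libraries together, and Il21 was the 1 called. In the limma fit on log2(RPKM + 1), which understates changes of low genes, the Il21 difference was 3.11 ± 0.84 (SE) and its adjusted p was 0.296. That fit called 5 of 9605 genes in either direction (0.0521%), and 0 of the 6 members it kept. Before adjustment, p was under 0.05 for 435 genes that were higher and 400 that were lower in RT, and the Il21 p was 0.00462.

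The Il21 difference was also estimated within each depth. Within the deep libraries alone it was 2.97 ± 0.49 by limma voom (log2, SE, adjusted p = 0.00384), where 6.13% of genes were called higher in RT. That set has 1 RT library, which the fit assumes to vary like WT1 and WT2, so its error does not measure the spread between RT mice. Within the shallow libraries alone the Il21 difference was 3.15 ± 1.02 (limma voom, adjusted p = 0.0337), where 3.61% were called higher. That fit sets RT2 and RT3 against WT3 and WT4 and takes its error largely from other genes. Its p-value therefore measures the spread between mice only weakly. The difference between the deep and the shallow effects was 0.24 ± 2.15 (shallow minus deep). It rests on the same deep RT library and leaves a wide range of differences possible. That term was added after the data had been seen, and it was called for 0.854% of genes. Summed over the shallow libraries, Il21 had 31 reads in RT and 6 in WT, a ratio of 5.30 between their levels with an exact interval of 2.18 to 15.5. That interval pools the reads of different mice and leaves out the spread between them. All 6 WT reads came from WT4. Left-out libraries moved the size: the estimate was 3.82 without WT1 and 1.99 without WT2, both called. Without RT1, the only deep RT library, it was 3.17 ± 2.46 with an adjusted p of 0.816, and that fit called 0 of 5852 genes in limma voom, with p under 0.05 before adjustment for 166 higher and 323 lower genes. In bulk RNA from a sorted population, more cells that express a gene and more RNA per cell cannot be told apart.

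Among the genes with transcripts in each library, Il21 ranked high in RT. Per length, its RPKM stood at percentile 93.5 in RT1, 84.8 in RT2 and 84.3 in RT3, against 68.1 in WT1, 32.3 in WT2 and 65.2 in WT4, with no read in WT3. WT1 and WT2 were themselves far apart at the same depth. The gene lies on mm10 chr3:37222759-37232636 on the minus strand (GENCODE M21), and the nearest gene on its other side from Il2, the centrin gene Cetn4, had 11, 0 and 0 reads in RT and 5, 0, 0 and 0 in WT.

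Il2, the T cell growth factor gene, lies 96800 bases from Il21 at chr3:37120523-37125959, and it had no read in any of the 7 libraries. With 3 reads as the limit, counting error alone would put its level under 0.270 RPM in RT1, 0.335 RPM in WT1 and 0.286 RPM in WT2. Deep reads may not stand for independent molecules, so these figures do not bound the level of Il2. Il2 overlaps Adad1, a gene known from testis, which also had no read. In RT1 the Il2 neighbour Il21 ranked the second of the 9 per length. The shallow libraries, where a gene with no read could reach 27.1 RPM or more, add little.

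Il17a, the type 17 cytokine gene at chr1:20730905-20734496, likewise had no read in any library, and neither had its neighbour and paralog Il17f. The limits of the deep libraries, at most 0.335 RPM, cover counting error only for both and do not bound their levels. Il4, the type 2 cytokine gene at chr11:53602982-53618669, was seen in 2 deep libraries only. It had 96 reads (8.65 RPM) in RT1, against 49 reads (5.47 RPM) in WT1 and none in WT2, and no read in RT2, RT3, WT3 or WT4. The groups overlapped. The levels in RT1 and WT1 are below what a shallow library can show, so the zeros there say little. Il13, which neighbours Il4 and is often expressed with it, had 1 read, in RT3. Il4 passed neither main filter. With the filter of 10 reads over all libraries its estimate was 3.48 ± 1.76 on the log2 scale by limma voom (adjusted p = 0.218), and with no filter on log2(RPKM + 1) it was 0.32 ± 0.66 (adjusted p = 0.918).

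Ifng, the type 1 cytokine gene at chr10:118441046-118445892, was high in the shallow RT libraries and not in the deep one. It stood at 23.1, 219 and 72.3 RPM in RT1, RT2 and RT3, against 28.8, 10.02, 28.7 and 37.3 RPM in WT1 to WT4. RT2 and RT3 were above all WT libraries, and RT1 lay among them. The means were 71.1 ± 74.2 RPKM in RT (SD, n = 3) and 14.9 ± 9.42 RPKM in WT (SD, n = 4). The RT-over-WT difference was 0.56 ± 0.46 on the log2 scale in limma voom (adjusted p = 0.440) and 1.69 ± 0.90 in the limma fit on log2(RPKM + 1) (adjusted p = 0.646). It was called in neither. Over the shallow libraries there were 29 Ifng reads in RT and 7 in WT, a ratio of 4.25 (exact interval 1.82 to 11.5). That interval covers counting error only and leaves out the spread between mice. Limma voom on those libraries alone gave 1.76 ± 0.62 with an adjusted p of 0.0521, which measures that spread only weakly. The limma voom estimate for Ifng was 0.50 ± 0.63 in the deep libraries. The difference between the depths was 1.3 ± 1.5 (adjusted p = 0.886).

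Il10, which encodes an inhibitory cytokine and lies at chr1:131019845-131024974, followed the same order of libraries in RT. Its levels were 5.50, 83.4 and 36.1 RPM in RT1, RT2 and RT3, against 12.05, 2.67, 19.1 and 9.32 RPM in WT1 to WT4. RT2 and RT3 were the highest of the 7, and RT1 lay below 3 of the 4 WT libraries. The values rest on 8 and 4 reads in RT2 and RT3 and on 2 and 1 in WT3 and WT4. The difference was 0.14 ± 0.60 on the log2 scale in limma voom (adjusted p = 0.898) and 1.54 ± 0.98 on log2(RPKM + 1) (adjusted p = 0.697). The shallow ratio was 4.10, with an exact interval of 1.11 to 22.6 that leaves out the spread between mice. Without WT1 the limma voom fit called both genes higher, Ifng at 1.26 (adjusted p = 0.0169) and Il10 at 1.11 (adjusted p = 0.0436). Without WT2 both estimates turned below 0, to -0.13 for Ifng and -0.85 for Il10, neither called.

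Some genes of cytotoxic lymphocytes were also high in RT2 and RT3, and others were not. The NK cell list summed to 45.5, 646 and 298 RPM in RT1, RT2 and RT3, against 93.2 to 143 RPM in WT, with 4 to 8 of its 12 genes above 0 in a library. Its receptor genes Klra8, Klra4 and Klre1 were at 0 in every library, Klrk1 and Klrb1c were at 0 in RT2 and RT3, and Eomes and Nkg7 held most of its reads there. Prf1, the perforin gene, stood at 5.32, 10.4 and 9.03 RPM in RT, against 39.9, 46.6, 9.56 and 28.0 RPM in WT. The CD8 T cell list summed to 37.8, 2689 and 1129 RPM in RT1, RT2 and RT3, against 58.6 to 336 RPM in WT, with 2 to 5 of 6 genes above 0. Ccl5 and Gzmk carried it in RT2, with 203 and 55 reads, whereas Crtam was at 0 in RT2 and RT3 and Cd8a had no read in any RT library. Limma voom tested 2 genes of each list and called 0, and the limma fit on log2(RPKM + 1) tested 5 of each and called 0. Before adjustment, p was under 0.05 on log2(RPKM + 1) for Prf1, Cd8a and Crtam, lower in RT, and for Gzmk, higher in RT, and in limma voom for 0 of the 4 tested. The part of such cells in the Ifng and Il10 levels was not tested.

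The TNF superfamily genes lie together on chr17, with Ltb at 35194439-35196320, Tnf at 35199381-35202007 and Lta at 35203165-35205351. Ltb and Tnf are 3061 bases apart, and Tnf and Lta 1158. Despite this they differed in level and in how they stood in the groups. None was called in either fit, and in each of the 3 the groups overlapped.

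Ltb, the membrane-bound partner that anchors lymphotoxin at the cell surface, was the highest of the 9 per length in all 7 libraries. Its RPKM was 107, 505 and 298 in RT1 to RT3, against 110.0, 165, 344 and 228 in WT1 to WT4, at percentiles 97.3 to 99.1 of the genes above 0. In RPM it stood at 318, 844 and 497 in RT and at 345, 479, 593 and 391 in WT. The RT libraries held both the lowest and the highest value. Its difference was -0.16 ± 0.23 on the log2 scale in limma voom (adjusted p = 0.678) and 0.38 ± 0.68 on log2(RPKM + 1) (adjusted p = 0.910). The limma voom estimate was -0.35 at the greater depth and 0.41 at the lesser, and the difference between them was 0.77 ± 0.55 (adjusted p = 0.779). B cells also express Ltb. The B cell list summed to 156 to 483 RPM in RT, against 259 to 1929 RPM in WT, where WT3 and WT4 were the highest at 1673 and 1929 RPM. It had 4 to 11 of 12 genes above 0 in RT libraries and 11 to 12 in WT libraries, and its part in the Ltb level was not tested.

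Tnf, which encodes the main inflammatory member of the family, stood at 33.2, 93.8 and 63.2 RPM in RT1 to RT3, against 44.3, 22.2, 28.7 and 28.0 RPM in WT1 to WT4. RT2 and RT3 were above all WT libraries, and WT1 was above RT1. The means were 32.4 ± 20.9 RPKM in RT (SD, n = 3) and 12.6 ± 3.84 RPKM in WT (SD, n = 4). The difference was 0.15 ± 0.33 on the log2 scale in limma voom (adjusted p = 0.792) and 1.08 ± 0.57 on log2(RPKM + 1) (adjusted p = 0.646). The shallow ratio was 2.73, with an exact interval of 1.02 to 8.53 from 16 reads in RT and 6 in WT. That interval leaves out the spread between mice. Macrophages are a known source of Tnf. The myeloid list summed to 2398, 281 and 406 RPM in RT1, RT2 and RT3, against 504 to 1109 RPM in WT, with 5 to 11 of 11 genes above 0 in RT and 7 to 9 in WT. Cd68 stood at 102, 0 and 0 RPM in RT1 to RT3, against 24.0 to 93.2 RPM in WT, and Cd14 at 53.5, 20.8 and 54.2 RPM in RT, against 13.1, 7.06, 0 and 0 RPM in WT. Limma voom tested 4 genes of that list and called 3 higher in RT, beside 10.05% over all genes tested. They were Adgre1, Cd68 and Csf1r, at 2.15, 1.82 and 1.51 on the log2 scale. In the shallow libraries alone their estimates were below 0, at -3.28, -4.11 and -2.07. Csf1r was also uncalled without RT3 and without WT1. On log2(RPKM + 1) 9 genes of the list were tested and 0 called. The part of such cells in the Tnf level was not tested.

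Lta, whose product forms soluble homotrimers or joins lymphotoxin beta, was the only one of the 6 members kept on log2(RPKM + 1) with an estimate below 0 there. It stood at 10.1, 31.3 and 9.03 RPM in RT1 to RT3, against 17.3, 19.1, 19.1 and 28.0 RPM in WT1 to WT4. RT1 and RT3 were below all WT libraries, and RT2, with 3 reads, was above them. The difference on log2(RPKM + 1) was -0.30 ± 0.60 (limma, adjusted p = 0.924). Lta had 9 reads in all over the shallow libraries and so was not kept in the main limma voom fit. With 10 reads over all libraries as the filter, its estimate was -0.80 ± 0.29 on the log2 scale (adjusted p = 0.112).

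**Figure D2:**
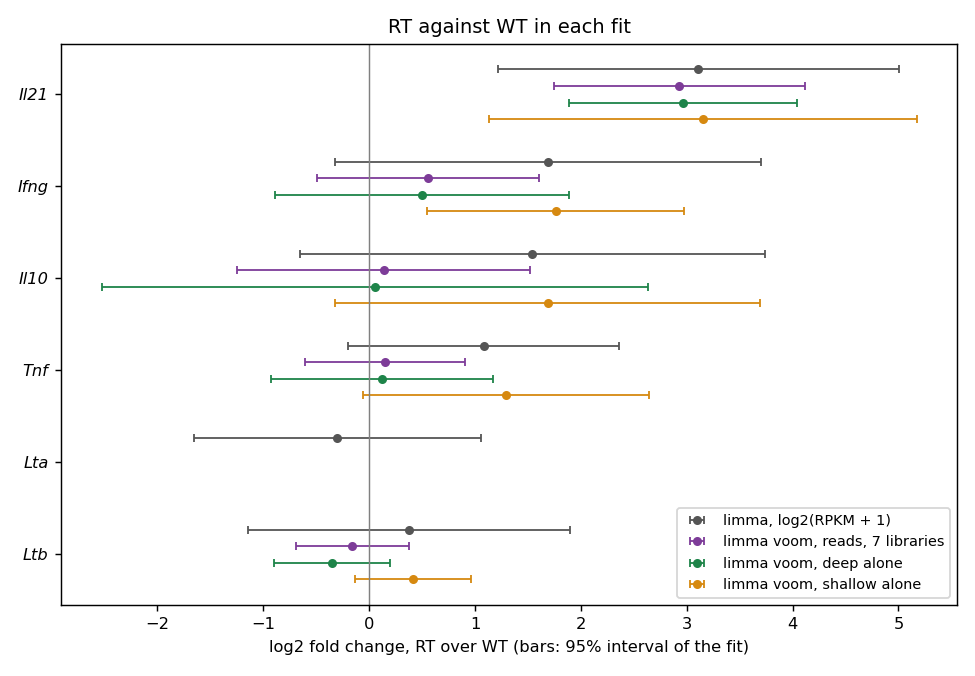
Log2 fold change, RT over WT, of the 6 cytokine genes kept in the limma fit on log2(RPKM + 1) and in limma voom on recovered reads, where it is given over all libraries and within the deep and the shallow libraries alone. Points are estimates and bars 95% intervals. The Il21 interval in limma voom runs from 1.74 to 4.12, and the estimate for Ltb is -0.16.

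Over the 5 members kept in limma voom, the median difference was 0.15 on the log2 scale, beside -0.02 over all genes tested. Over the 6 members kept on log2(RPKM + 1) it was 1.31, beside 0.00. Il2 and Il17a could enter neither fit. The fit on log2(RPKM + 1) has no library set term. With that term the difference went from 1.69 to 1.32 for Ifng, from 1.54 to 1.14 for Il10 and from 1.08 to 0.89 for Tnf. It went from 0.38 to 0.15 for Ltb, from 3.11 to 3.09 for Il21 and from -0.30 to -0.50 for Lta. The summed level of the 9 genes was 570, 1428 and 822 RPM in RT1 to RT3, against 498, 545, 688 and 550 RPM in WT1 to WT4. RT1 lay within the WT range, and RT2 and RT3 above it.

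Within that sum the make-up varied between the libraries. Il21 took 30.2%, 10.9% and 17.6% of the members' reads in RT1, RT2 and RT3, against 9.04%, 2.17%, 0% and 10.2% in WT1 to WT4. The exact binomial interval was 29.0% to 31.3% in RT1 and 6.26% to 17.4% in RT2, which rests on 137 reads. RT2 exceeded WT4 by less than that interval is wide, and the WT4 interval, 3.82% to 20.8%, covered the RT2 share. The means were 19.6% ± 9.76 in RT (SD, n = 3) and 5.35% ± 5.02 in WT (SD, n = 4). Ltb took 55.7%, 59.1% and 60.4% in RT, against 69.3%, 87.9%, 86.1% and 71.2% in WT. The Ltb shares did not overlap between the groups, although its level did, and how often other genes separate so was not worked out. Shares of a fixed sum are bound to each other, and no test of them is given because the genes were chosen with results known.

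**Figure D3:**
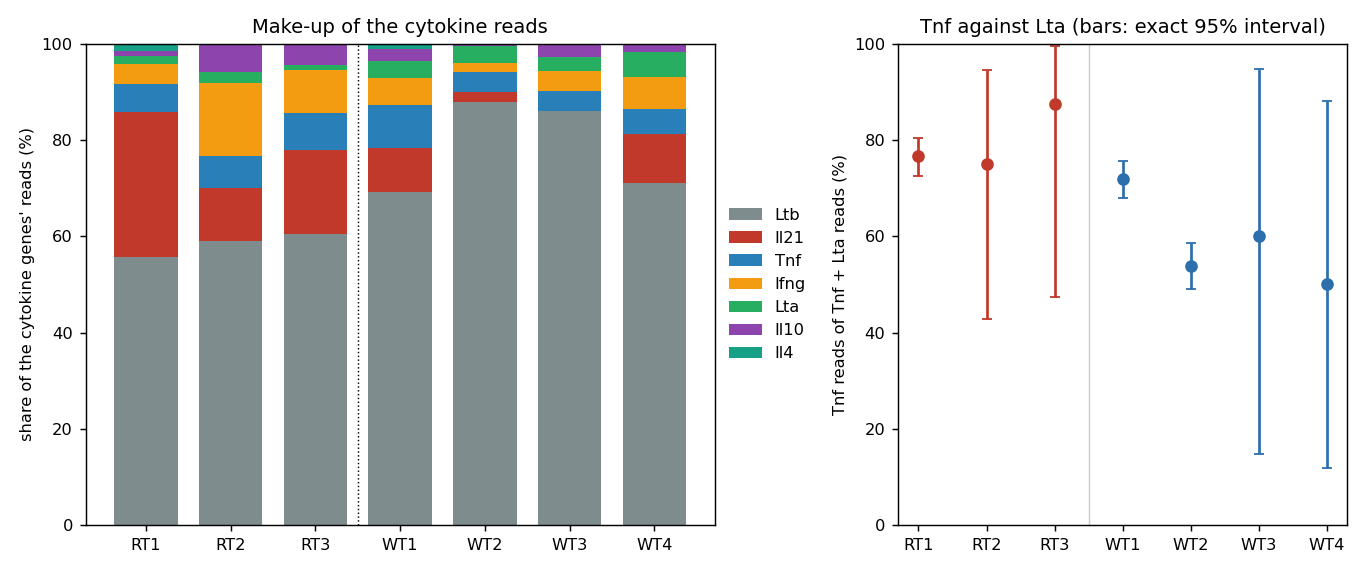
Left, share of the reads of the 9 cytokine genes that each gene took, in percent, 1 bar per library with RT left of WT. The Il21 share is 10.9% to 30.2% in RT and 0% to 10.2% in WT, and Ltb is the largest share in every bar. The right panel shows the share of Tnf in the reads of Tnf and Lta, with exact 95% binomial intervals, at 75% to 87.5% in RT and 50% to 71.9% in WT.

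Across the 7 libraries, with each library set centred on its own mean, Ifng, Il10 and Tnf had similar patterns. On log2(RPM + 1) the Pearson r was 0.961 for Ifng and Tnf, 0.954 for Il10 and Tnf, and 0.906 for Ifng and Il10. The r of Il21 was 0.713 with Ifng and 0.429 with Il10, and that of Lta with Ifng, Il10 and Tnf was -0.10 to 0.0849. Among 8689 genes above 0 in 5 or more libraries, those most like Il21 were Art2a-ps (0.996), Zfp52 (0.990) and Tmbim1 (0.989). Art2a-ps stood at 119, 281 and 235 RPM in RT, against 26.6, 9.64, 0 and 112 RPM in WT. The genes most like Ifng were Chkb, Mmadhc and Irgm1, the last a GTPase induced by interferon gamma, at 0.978 to 0.987. Irgm1 varied little in level, at 124, 125 and 108 RPM in RT, against 128, 112, 86.0 and 93.2 RPM in WT. Slc1a5, a glutamine transporter gene, was most like Tnf at 0.996, and the translation factor gene Eif3k and the RNA gene Gas5 were most like Ltb at 0.993 and 0.991. Jmjd6 was most like Il10 at 0.992, and Ifit1bl1 most like Lta at 0.999. These values describe 7 libraries that share depth within a set and were selected as the highest of many.

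Of 18 other helper cytokine genes listed, 17 were in the table and 9 were above 0 in any library, whereas Il3, Il5, Il9, Il17f, Il22, Il24, Il31 and Csf2 were at 0 in all 7. Limma voom tested 4, of which 2 rose and none fell, beside 10.05% risen and 8.39% fallen over all genes tested. Csf1, which encodes the growth factor of macrophages, stood at 260, 72.9 and 163 RPM in RT, against 49.3, 19.7, 9.56 and 18.6 RPM in WT, and rose by 3.06 ± 0.37 on the log2 scale (adjusted p = 0.00165). Mif, the macrophage migration inhibitory factor gene, stood at 116, 365 and 217 RPM in RT, against 71.3, 66.5, 47.8 and 93.2 RPM in WT, and rose by 0.85 ± 0.20 (adjusted p = 0.0226). In both, every RT library was above every WT library, as for 5.74% of all genes tested. Of 14 other TNF superfamily ligand genes 4 were tested and 1 was called, beside the same shares over all genes. Tnfsf8, which encodes CD30 ligand, rose by 1.65 ± 0.29 (adjusted p = 0.00731), at 406 to 696 RPM in RT and 129 to 258 RPM in WT.

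Of 15 receptor genes of the 9 cytokines, 12 were tested in limma voom, 2 rose, 3 fell and 7 were not called, beside 10.05% risen and 8.39% fallen over all genes tested. The median difference of the 12 was 0.12. Il2ra, the chain that gives the interleukin 2 receptor its high affinity, fell by 1.85 on the log2 scale (SE 0.21, adjusted p = 0.00123), at 25.9, 41.7 and 27.1 RPM in RT and 98.2, 97.7, 19.1 and 46.6 RPM in WT. Its groups overlapped through WT3, and without RT1 its estimate was 0.12. Il17ra fell by 1.47 (SE 0.17, adjusted p = 0.00130), and Il4ra fell by 1.25 (SE 0.21, adjusted p = 0.00609), to 31.3 to 138 RPM in RT, against 220 to 373 RPM in WT. Il13ra1, a chain that binds interleukin 4 with Il4ra, rose by 3.36 ± 0.46 (adjusted p = 0.00270), and Tnfrsf1b, the TNF receptor 2 gene, rose by 1.02 ± 0.24 (adjusted p = 0.0230). Il13ra1 and Csf1 are also expressed by myeloid cells, whose list was highest in RT1 as given above, and the part of those cells was not tested.

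Of 30 genes for transcription factors known to act on these cytokine genes, 26 were tested in limma voom, 6 rose, 1 fell and 19 were not called, with a median of 0.23. Over all 5852 genes tested, 10.05% rose and 8.39% fell. Bcl6, the defining factor of follicular helper cells, stood at 293, 177 and 253 RPM in RT, against 86.9, 61.9, 66.9 and 37.3 RPM in WT, and rose by 2.0 ± 0.19 (adjusted p = 6.18e-04). Batf, a partner of IRF4 at the Il21 and other cytokine loci, stood at 198, 344 and 461 RPM in RT, against 66.9, 42.1, 66.9 and 74.6 RPM in WT, and rose by 1.95 ± 0.23 (adjusted p = 0.00138). Maf, which activates Il21, Il4 and Il10, rose by 1.4 ± 0.24 (adjusted p = 0.00694), at 479 to 863 RPM in RT and 233 to 426 RPM in WT. Stat4, which relays interleukin 12 to Ifng, rose by 1.05 ± 0.17 (adjusted p = 0.00509). For these 4 genes every RT library was above every WT library, as for 5.74% of all genes tested. The AP-1 gene Fosl2 rose by 1.15 ± 0.22 (adjusted p = 0.00937), and Runx3, which acts with T-bet on Ifng and represses Il4, fell by 1.39 (SE 0.19, adjusted p = 0.00269). Runx3 stood at 43.6, 52.1 and 108 RPM in RT, against 113, 128, 86.0 and 103 RPM in WT, so the groups overlapped, and its estimate was -0.26 when RT1 was left out and -0.27 over RT2, RT3, WT3 and WT4 (adjusted p = 0.814). Nfil3 also rose, by 2.31 ± 0.48 (adjusted p = 0.0145), and is named after its value was seen.

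Of 11 genes whose products control cytokine mRNA, all were tested and 1 was called, higher in RT, beside 10.05% called higher over all genes tested. Zc3h12d, of the regnase family of RNases, rose by 0.91 ± 0.22 (limma voom, adjusted p = 0.0223), at 223 to 271 RPM in RT and 76.5 to 152 RPM in WT. Of 30 genes that neighbour the members, 8 were tested and 1 was called higher in RT, beside the same share over all genes. Mapkapk2, a kinase gene 28726 bases from Il10, rose by 0.61 ± 0.15 (adjusted p = 0.0290). The nearest gene to the other side of Lta, Nfkbil1, had 270, 2 and 1 reads in RT and 191, 241, 0 and 0 in WT, and Lst1 beside Ltb had 79, 0 and 0 reads in RT and 60, 0, 0 and 3 in WT. In the limma fit on log2(RPKM + 1), 0 genes were called in each of these lists. No gene named as risen or fallen was called in limma voom without RT1. There the estimate was 1.97 for Mif, 2.12 for Il13ra1, -0.93 for Il17ra, 1.49 for Zc3h12d and 1.49 for Nfil3. Mif, Tnfrsf1b, Zc3h12d and Mapkapk2 were also uncalled without RT3, and the last 3 of these also without WT3 and without WT4.

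**Figure D4:**
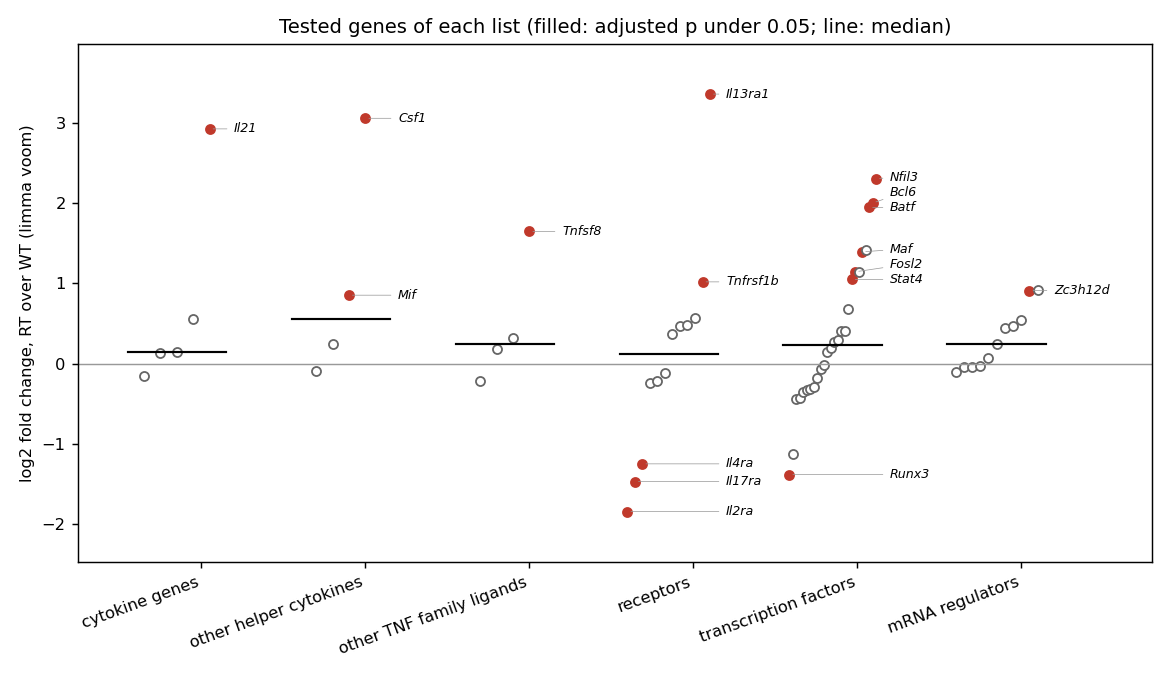
Log2 fold change, RT over WT, in limma voom on recovered reads, for the tested genes of the cytokine list and of 5 related lists. Filled points have an adjusted p under 0.05 and are named, open points do not, and the black line is the list's median. Il21, Csf1 and Il13ra1 lie near 3, and Il2ra is the lowest at -1.85.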

How the data were processed

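CD4+ splenocyte RNA was sequenced from 3 RT and 4 WT mice, with libraries made from 150 ng of RNA, per the labels. The authors deposited 1 table of RPKM values. The build was mm10 according to the submitters' processing notes. The aligner, counter and annotation used were not given in the sources used here, and the RPKM values were not rescaled.

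Where whole reads were counted, RPKM times gene length (GENCODE M21) times the library's total gives whole numbers. Of the values under 100 reads, 78.9% to 83.8% per library came out whole within 0.01 reads. For 2436 genes a single other length was found, for 819 the deep and shallow libraries needed different lengths, and 68 were rounded. Recovered reads made up 48.3% to 52.3% of a deep library's total and 87.9% to 91.0% of a shallow one's.

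In R 4.3.3, limma 3.58.1 fitted log2(RPKM + 1) (trend, genotype only, genes at 1 RPKM or more in 3 or more libraries). This planned test is the main one for the unit. The recovered reads were fitted with limma voom (genotype and library set, 10 or more reads over the shallow libraries). Tests are two-sided with Benjamini-Hochberg adjustment over all genes kept and a threshold of 0.05, and were tested on simulated data. P-values take each library as a separate mouse, as labelled. In limma voom RT1 is the only deep RT library, and without it 0 genes were called. Those p-values therefore measure the spread between RT mice only weakly.

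The members, gene lists and tests were chosen with earlier results of these data known. All members are named. Of each other list at most 6 called genes with the smallest p are named, and for each member up to 3 genes with the highest Pearson r. Alternatives changed the pseudocount, filters, scaling, terms and libraries.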

Additional observations from a re-analysis of the deposited data

Results flagged for a closer look

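Il4 in WT1 stood far from the other WT libraries. It was 2.15 RPKM, or 5.47 RPM, in WT1 and 0 in WT2, WT3 and WT4, so that the gap to the nearest library was the whole range of the group. Chance marks about 1 in 20 groups of 4 in this way where values vary normally. That rate does not apply here, since 3 values at 0 make the gap equal to the range whatever the level in the other library. WT3 and WT4 could not show such a level at their depth, and WT2, at the depth of WT1, had no read.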

How the results depend on the processing

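On log2(RPKM + 1), where 4 genes were called higher and 1 lower in RT, a pseudocount of 0.1, no filter and the replicate block each gave 0 higher and 0 lower in limma, against 364 and 393, 483 and 389, and 601 and 281 genes at an unadjusted p under 0.05. Quantile scaling gave 20 and 7, a library set term 21 and 5, and leaving out 1 library 0 to 16 and 0 to 5. On recovered reads, with 588 and 491 called in limma voom, the counts were 297 and 195 without the library set term, 359 and 177 in the deep libraries alone, 211 and 294 in the shallow libraries alone, and 0 to 810 and 0 to 702 with 1 library left out. Without RT1 they were 0 and 0, and without RT3 373 and 313. Median-ratio size factors gave 554 and 428, no filter 681 and 407, 10 reads over all libraries 804 and 462, and WT3 summed with WT4 417 and 339. Il21 kept a positive difference in every alternative, at 2.39 to 4.10 on log2(RPKM + 1), never called, and at 1.96 to 3.82 on recovered reads, called in all but the fit without RT1. With 1 library left out, the lowest and highest log2 differences on log2(RPKM + 1) were -0.94 and 0.16 for Lta, positive without RT1, and -0.12 and 0.99 for Ltb, negative without RT2. On recovered reads they were -0.13 and 1.75 for Ifng, -0.85 and 1.68 for Il10 and -0.31 and 1.29 for Tnf, each negative without WT2, and -0.30 and 0.41 for Ltb, positive without RT1 and without WT2. Ltb was also -0.0029 with quantile scaling on log2(RPKM + 1), and on recovered reads 0.090 without the library set term and 0.41 in the shallow libraries.

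Whether replicate numbers pair the samples could not be settled. The deviations of same-numbered libraries from their group means correlated at 0.32, -0.13 and 0.08. These deviations were not centred by depth, and RT1 and WT1 are both deep, RT3 and WT3 both shallow, and RT2 and WT2 unlike. With the replicate block the recovered-read counts were 806 and 728, Il21 was 1.96, Ifng -0.29, Tnf -0.39 and Il10 -1.08, the last with an adjusted p of 0.0291. The cause of these changes was not tested. Shallow libraries limit what can be said of members under 27.1 to 31.3 RPM.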

Other observations

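Between the neighbours Tnf and Lta, a pair chosen after the values were seen, Tnf took 76.7%, 75% and 87.5% of their summed reads in RT1, RT2 and RT3, against 71.9%, 53.8%, 60% and 50% in WT1 to WT4. The means were 79.7% ± 6.79 in RT (SD, n = 3) and 58.9% ± 9.59 in WT (SD, n = 4). Every RT share was above every WT share, but how often other gene pairs separate so was not worked out. The exact 95% binomial intervals of RT2 (42.8% to 94.5%) and RT3 (47.3% to 99.7%) overlapped that of WT1 (68.0% to 75.6%). The shallow values rest on few reads, 12 and 8 in RT2 and RT3 and 5 and 6 in WT3 and WT4.

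Dyrk2, a kinase gene 409711 bases from Ifng, fell in RT by 0.74 on the log2 scale (SE 0.19, limma voom on recovered reads, adjusted p = 0.0305). It is named after its value was seen. It stood at 105, 31.3 and 36.1 RPM in RT, against 153, 193, 66.9 and 140 RPM in WT.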
